A study of Mus musculus with 2 samples.

Results

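The genes described here are 43 genes of mitosis, the phase in which a cell condenses its duplicated chromosomes, attaches them to the spindle, separates them and divides. They were listed by function, and every probe set whose single gene symbol is one of them was taken. Of the 43 genes, 42 had such a probe set and all 42 were measured, among 12897 measured genes of 18193 named on the arrays. Ccnb1, the gene of cyclin B1, is not analysed here. Where a gene had several probe sets, the brightest over both arrays (by mean log2 signal) stands for it.

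The samples were antigen-presenting cells (APCs) from the spleens of 10-week-old female C57BL/6 mice, labelled wild type. In both groups the APCs were kept overnight with CD4+ T cells bearing the P25 TCR, a transgenic T cell receptor. The stimulated group also received P25, the peptide which that receptor recognises, and the non-stimulated group received medium alone. The APCs were then enriched, and RNA mixed from 3 independent experiments was hybridised to 1 array per group. Mixing removes the spread between experiments, so no comparison below has a replicate error or a test. All differences are signals with P25 divided by signals with medium, and "higher" and "lower" describe these 2 arrays. In bulk RNA, more dividing cells and more mitotic RNA per cell cannot be told apart.

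Mitosis is driven by CDK1 bound to cyclins A and B, together with the Polo and Aurora kinases. Kinetochores, protein assemblies on the centromere, tie chromosomes to spindle microtubules, and the spindle checkpoint holds back the anaphase-promoting complex (APC/C) until all are attached. The APC/C then marks securin and cyclin B for destruction, separase opens cohesin, and a contractile ring divides the cell. Transcripts of most of these genes accumulate in G2 and mitosis, and resting lymphocytes and macrophages hold little of them.

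The mitotic genes were higher with P25. Of the 42 measured genes 28 (66.7%) had at least 2-fold higher signal with P25, against 9.43% of all 12897 measured genes and 10.7% of the 8126 genes in the same range of mean signal. None was at least 2-fold lower, against 7.22% of all measured genes. The log2 ratio was above 0 in 40 of the 42, as in 51.4% of all measured genes, and its median was 1.31 (2.48-fold) beside 0.02 over all. The largest ratios were those of Birc5 (4.51-fold), Cdk1 (4.46-fold), Ttk (4.32-fold) and Ect2 (4.03-fold), and Birc5 ranked 122 among the 12897 genes. The smallest were those of Cenpa and Pttg1, the 2 genes with log2 ratios below 0, and of Smc4 and Ndc80. The ratios just above and below 2-fold belonged to Kif23 (2.03-fold), Tpx2 (2.04-fold) and Cenpe (1.99-fold).

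All 42 genes were above the floor of 10.3 signal units on both arrays, so none of these ratios is a bound. The floor is the 40th percentile of all signals, below which a signal was set to it. At 3-fold instead of 2-fold, 13 of the 42 were higher, against 3.09% of all measured genes. With a floor at the 75th percentile (122 signal units), above the medium signal of most of these genes, 12 of 36 were at least 2-fold higher, against 9.45% of all measured genes, and the median log2 ratio came to 0.67. The split of all genes depended on the scaling of the arrays. On the deposited scale 56.6% of the genes past 2-fold were higher, with both arrays at one median over the measured probe sets 71.0%, and with both at one spike-in level 71.6%. Over all genes the median log2 ratio then came to 0.15 and 0.16, and with either scaling 33 of the 42 mitotic genes were at least 2-fold higher, against 12.4% and 12.5% of all measured genes.

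**Figure D1:**
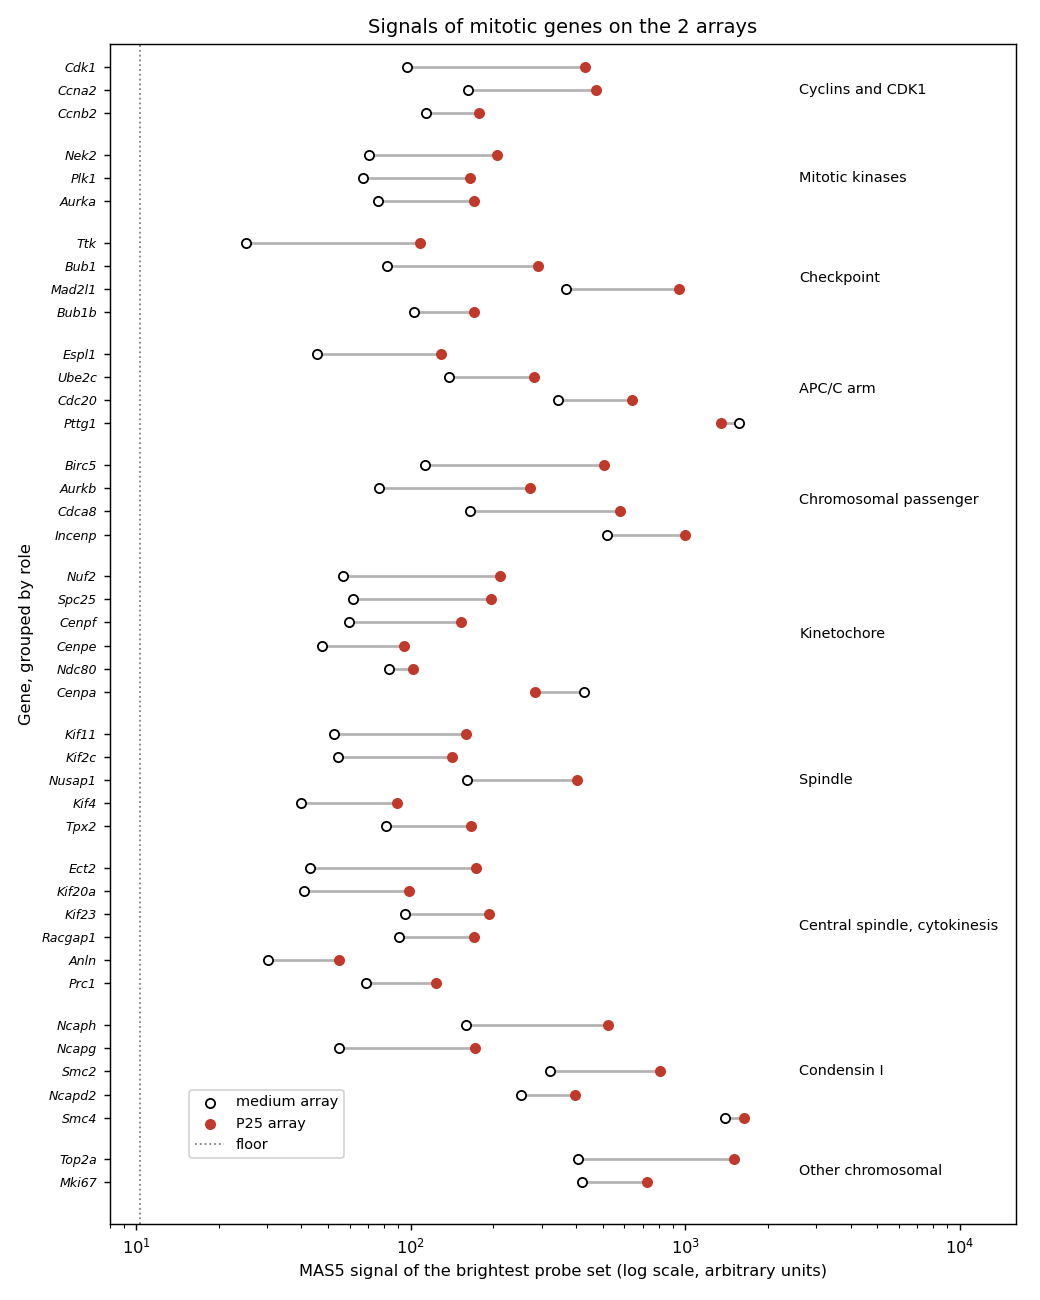
MAS5 signals on a log scale of the 42 measured mitotic genes, grouped by role, with open points for the medium array, red points for the P25 array and a dotted line at the floor of 10.3. The red point lies to the right of the open point in 40 genes and to its left in Pttg1 and Cenpa.

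The promoters of these genes share short sequence elements. Many mitotic genes carry CCAAT boxes, which NF-Y binds, and a cell cycle genes homology region (CHR), the element bound by the DREAM and MMB complexes. DREAM represses such genes in resting cells and MMB, which contains B-MYB (Mybl2), acts on them in dividing cells. RefSeq windows of 300 bases, from 250 before to 50 after an annotated start (build GRCm38.p6), were matched by symbol for 37 of the 43 genes, in 39 windows. Those of Ccna2, Aurkb, Tpx2, Smc4, Incenp and Kif20a were not used here. The windows of the 3 highest and the 3 lowest ratios among measured genes with a window are shown, 5′ to 3′ along the gene, to set genes at both ends of the range side by side. Capitals mark CCAAT, CHR (TTTGAA or TTCGAA) and E2F (TTTCGCGC, TTTGGCGC or TTTCCCGC) letters on either strand. The Birc5 window is chr11:117848987-117849286, plus strand, that of Cdk1 is chr10:69352863-69353162, minus strand, and that of Ttk is chr9:83834439-83834738, plus strand. The Cenpa window is chr5:30666636-30666935, plus strand, that of Pttg1 is chr11:43425932-43426231, minus strand, and that of Ndc80 is chr17:71526808-71527107, minus strand.
Birc5: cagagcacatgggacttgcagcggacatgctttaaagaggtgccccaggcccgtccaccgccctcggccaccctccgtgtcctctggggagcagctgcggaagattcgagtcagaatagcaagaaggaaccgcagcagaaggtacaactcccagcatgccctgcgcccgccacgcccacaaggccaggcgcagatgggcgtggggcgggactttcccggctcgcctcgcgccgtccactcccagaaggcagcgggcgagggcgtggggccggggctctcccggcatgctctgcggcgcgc
Cdk1: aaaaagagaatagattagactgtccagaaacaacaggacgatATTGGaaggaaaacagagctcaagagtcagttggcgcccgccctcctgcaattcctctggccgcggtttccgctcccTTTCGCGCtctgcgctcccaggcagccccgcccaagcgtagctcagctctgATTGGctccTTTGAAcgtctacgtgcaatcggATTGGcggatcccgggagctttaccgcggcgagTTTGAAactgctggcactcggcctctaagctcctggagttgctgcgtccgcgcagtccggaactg
Ttk: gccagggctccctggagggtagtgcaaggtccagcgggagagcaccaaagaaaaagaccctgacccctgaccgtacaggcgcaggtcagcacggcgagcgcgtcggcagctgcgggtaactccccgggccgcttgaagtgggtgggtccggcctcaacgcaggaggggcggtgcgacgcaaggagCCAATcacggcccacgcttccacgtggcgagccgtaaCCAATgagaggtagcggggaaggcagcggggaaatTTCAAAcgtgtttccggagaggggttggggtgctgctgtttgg
Cenpa: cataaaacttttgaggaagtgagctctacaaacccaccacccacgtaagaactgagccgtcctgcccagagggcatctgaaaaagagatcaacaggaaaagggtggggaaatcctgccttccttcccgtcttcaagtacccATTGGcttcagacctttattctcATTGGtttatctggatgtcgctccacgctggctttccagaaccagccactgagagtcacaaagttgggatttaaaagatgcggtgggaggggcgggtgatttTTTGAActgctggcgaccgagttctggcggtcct
Pttg1: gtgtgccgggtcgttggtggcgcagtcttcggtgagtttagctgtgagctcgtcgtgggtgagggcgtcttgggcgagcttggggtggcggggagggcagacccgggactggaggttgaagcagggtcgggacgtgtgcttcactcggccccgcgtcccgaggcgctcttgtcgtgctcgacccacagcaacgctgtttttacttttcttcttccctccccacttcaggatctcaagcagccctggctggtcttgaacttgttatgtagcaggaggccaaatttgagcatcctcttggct
Ndc80: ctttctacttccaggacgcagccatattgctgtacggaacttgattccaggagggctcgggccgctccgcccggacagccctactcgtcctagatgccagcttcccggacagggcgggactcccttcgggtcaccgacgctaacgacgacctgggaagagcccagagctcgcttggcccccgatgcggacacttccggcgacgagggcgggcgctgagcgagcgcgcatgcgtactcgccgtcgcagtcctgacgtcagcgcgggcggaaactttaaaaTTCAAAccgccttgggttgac

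The Cdk1 window held 3 CCAAT boxes, 2 CHR matches and 1 E2F match, with the nearer CHR at base -15 from the start. The Ttk window held CCAAT boxes at -65 and -28 and a CHR at 8. The Cenpa window, from the gene with the lowest ratio, held the same order of elements, with CCAAT boxes at -109 and -86 and a CHR at 17. Ndc80 had a CHR at 30 and no CCAAT box, and the windows of Birc5 and Pttg1 held none of these letters.

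A CHR match was present in 30 of the 39 windows (76.9%), against 19.2% of all 32851 windows of this length and 14.3% of the windows of measured genes. CCAAT was also present in 30 windows (76.9%), against 37.4% of all windows and 37.3% of those of measured genes, and both were present in 27 (69.2%), against 7.52% and 5.63%. Within 50 bases of the start, a range chosen after the positions were seen, 27 windows (69.2%) held a CHR, against 5.31% of all windows. The E2F letters were found in the windows of Cdk1, Ncapg and Ncapd2, or 7.69% of the windows, against 1.84% of all windows and 3.28% of those of measured genes. Of 28 measured genes with a CHR 18 passed 2-fold, and their median log2 ratio was 1.23. Of the 8 without one 6 did, and their median was 1.45. A match is a description of letters and shows no binding.

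**Figure D2:**
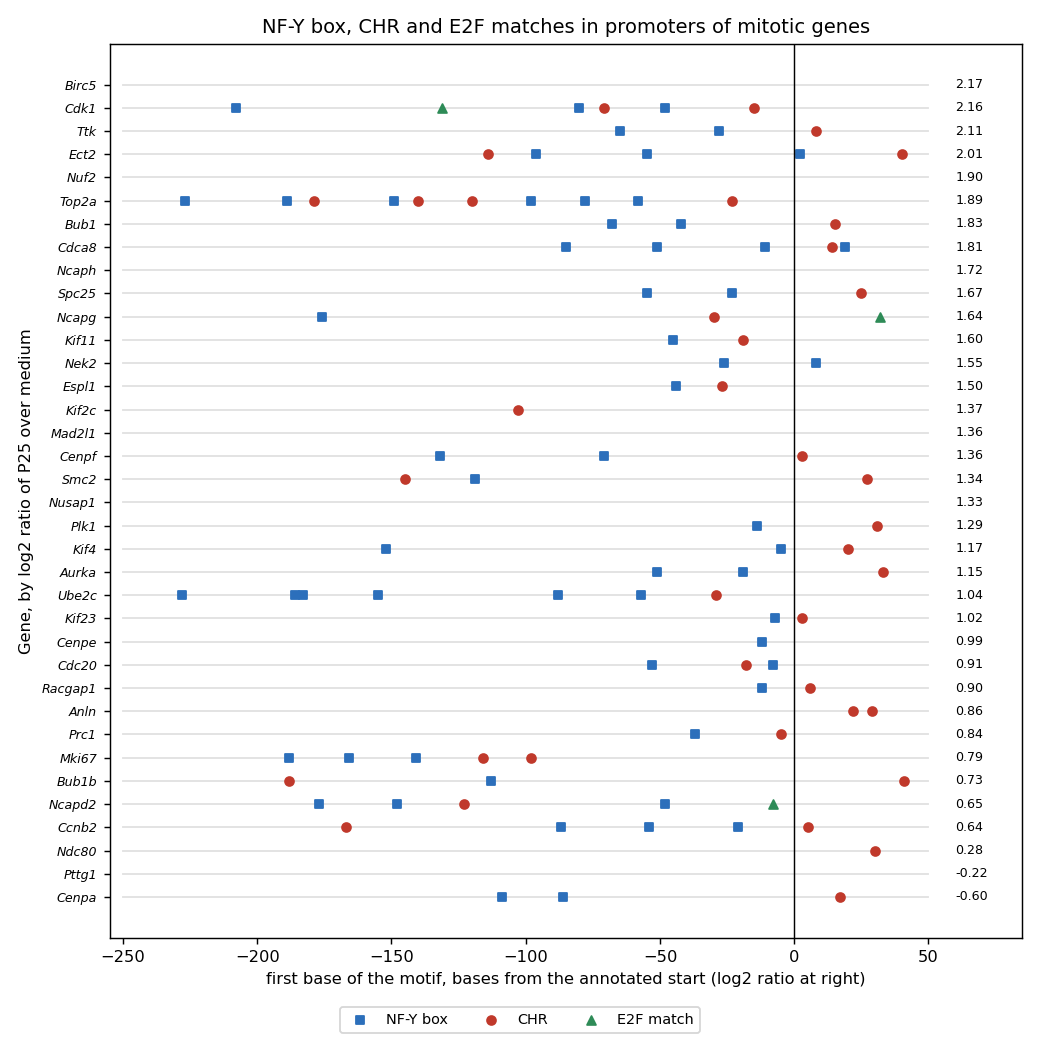
Positions of NF-Y boxes (CCAAT, blue squares), CHR (red circles) and E2F matches (green triangles) in the promoter windows of 36 measured mitotic genes, in bases from the annotated start, with genes ordered by log2 ratio and the ratio printed at the right. Most red circles lie within 50 bases of the start, from the top of the range down to Cenpa at -0.60.

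The cyclins and CDK1 start mitosis. Cdk1, the kinase itself, had a signal of 431 with P25 and 96.6 with medium (4.46-fold higher). Ccna2, which encodes the cyclin A of S phase and G2, had 473 against 161 (2.94-fold), and its second probe set gave a log2 ratio of 1.67. Ccnb2, a B-type cyclin that appears later, had 177 against 114 (1.56-fold), so the cyclin partners of the same kinase differed in size of ratio. Of the other mitotic kinases all 3 were at least 2-fold higher. Nek2, which acts in centrosome separation, had 206 against 70.7 (2.92-fold), Plk1, the Polo kinase of mitotic entry, 164 against 67.2 (2.44-fold), and Aurka, the Aurora kinase of the spindle poles, 169 against 76.3 (2.22-fold).

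Of the spindle checkpoint genes 3 of 4 were at least 2-fold higher. Ttk, the kinase MPS1 that starts the checkpoint signal, had 108 against 25.1 (4.32-fold). Its second probe set, dim and above the floor with P25 alone, gave a log2 ratio of at least 0.98. Bub1, a kinase of the kinetochore, had 290.5 against 81.9 (3.55-fold), and Mad2l1, whose protein captures CDC20, had 945 against 367 (2.57-fold). Bub1b, the gene of BUBR1, a part of the mitotic checkpoint complex with MAD2 and CDC20, had 170.4 against 102 (1.66-fold). The 2 brighter Bub1b probe sets gave log2 ratios of 0.73 and 0.87, and the remaining one, above the floor with medium alone, gave at most -0.87.

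Of the genes downstream of the checkpoint 2 of 4 were at least 2-fold higher. Espl1, which encodes separase, the protease that opens cohesin, had 129 against 45.6 (2.82-fold). Ube2c, the conjugating enzyme that works with the APC/C, had 282 against 138 (2.05-fold), and Cdc20, its mitotic activator, 642 against 343 (1.87-fold). Pttg1, which encodes securin, the inhibitor of separase, had 1348 against 1572, a log2 ratio of -0.22. All 3 Pttg1 probe sets were below 0, at -0.22, -0.05 and -0.78. On these arrays the separase gene was thus at least 2-fold higher, while that of its inhibitor was within 2-fold on all 3 probe sets.

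The chromosomal passenger complex places Aurora B at centromeres and later at the midzone, and 3 of its 4 genes were at least 2-fold higher. Birc5, the gene of survivin, had 507 against 112 (4.51-fold), on its 1 probe set. Aurkb, the kinase, had 272 against 76.9 (3.54-fold), and Cdca8, the gene of borealin, had 577 against 164 (3.52-fold). Incenp, the scaffold of the complex, had 995 against 518 (1.92-fold), and its second probe set passed 2-fold at a log2 ratio of 1.18. The 3 Cdca8 probe sets gave 1.81, 1.89 and 1.56, and the 2 of Aurkb 1.82 and 1.67.

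Kinetochore genes included the lowest member of the whole set, and 3 of 6 were at least 2-fold higher. Nuf2 and Spc25, both subunits of the NDC80 complex that grips microtubules, had 212 against 56.8 (3.73-fold) and 196 against 61.8 (3.17-fold). The other Spc25 probe set was dim, above the floor with P25 alone, at a log2 ratio of at least 0.26. Ndc80, the subunit that names the complex, had 102 against 83.6 (1.22-fold) on its 1 probe set. Spc24, the remaining subunit and not among the 43 genes, had 311 against 59.2 (5.24-fold). Thus 3 subunits of this complex were at least 3-fold higher and Ndc80 was within 2-fold.

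Among the other kinetochore genes, Cenpf, a large protein of the outer corona, had 152 against 59.5 (2.56-fold), though its second, dimmer probe set gave a log2 ratio of 0.46. Cenpe, the kinesin that moves chromosomes to the spindle equator, had 94.5 against 47.5 (1.99-fold). Cenpa encodes the histone H3 variant that marks the centromere. It had 283 against 427, a log2 ratio of -0.60 (1.51-fold lower), and its second probe set had 69.0 against 139.8 (-1.02). Both Cenpa probe sets above the floor were lower with P25, and the second was the 1 probe set at least 2-fold lower among the 76 that exceeded the floor on both arrays.

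All 5 spindle genes were at least 2-fold higher on their brightest probe set, from 2.04-fold to 3.03-fold. Kif11, the kinesin that pushes spindle poles apart, had 159 against 52.5 (3.03-fold), and Kif2c, a kinesin that removes tubulin from microtubule ends, had 141 against 54.5 (2.59-fold). Nusap1, which bundles spindle microtubules, had 403 against 159.8 (2.52-fold). Kif4, a chromosome-bound kinesin, had 89.4 against 39.8 (2.25-fold), and Tpx2, the activator of Aurora A on the spindle, had 166 against 81.6 (2.04-fold).

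Of the 6 genes of the central spindle and cytokinesis 3 were at least 2-fold higher. Ect2, the exchange factor that activates RhoA at the division plane, had 173 against 42.9 (4.03-fold), the largest ratio of this group. Its partners in centralspindlin had smaller ratios: Kif23, the motor subunit, had 193 against 95.0 (2.03-fold), and Racgap1 had 170.04 against 90.8 (1.87-fold). Kif20a, a kinesin of the midzone, had 98.7 against 40.8 (2.42-fold). Anln, the gene of the ring scaffold anillin, had 54.8 against 30.2 (1.81-fold). Prc1, which crosslinks midzone microtubules, had 123 against 68.9 (1.79-fold), and 2.92-fold on its other probe set.

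Condensin I compacts chromosomes through a pair of SMC ATPases and 3 further subunits, and 3 of its 5 genes were at least 2-fold higher. Ncaph, which closes the ring, had 524 against 159 (3.30-fold) and Ncapg had 171 against 54.8 (3.12-fold). The ATPase gene Smc2 had 811 against 321 (2.53-fold), and Ncapd2 had 396 against 252 (1.57-fold). The other Smc2 probe sets above the floor, all dimmer, gave log2 ratios of 1.73, 0.13 and 0.62. The median over the measured Smc2 probe sets was 0.98. Smc4, the other ATPase, had 1633 against 1394 (1.17-fold), but its 3 probe sets disagreed, at log2 ratios of 0.23, 1.02 and -0.25. The Ncapg probe sets both gave 1.64. Top2a, the topoisomerase that untangles sister DNA, had 1510.2 against 408 (3.71-fold). Mki67, which coats mitotic chromosomes and is a common marker of dividing cells, had 726 against 421 (1.73-fold).

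Probe sets that target the same gene gave a measure of technical disagreement. Between the brightest pair above the floor on both arrays, log2 ratios differed with an SD of 0.38 in the 23 mitotic genes that had such a pair, beside 0.58 over all 5293 genes with one. The second probe set had the same sign as the first in all 23 genes. Where the first was at least 2-fold higher, so was the second in 12 of 13 genes, Cenpf being the exception, beside 56.4% (301 of 534) over all genes. Of those 76 probe sets 45 were at least 2-fold higher and 6 had a log2 ratio below 0. The 18 hybridization spike-in probe sets had log2 ratios with an SD of 0.10, from -0.45 to -0.03. Neither measure includes the cultures or the animals.

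**Figure D3:**
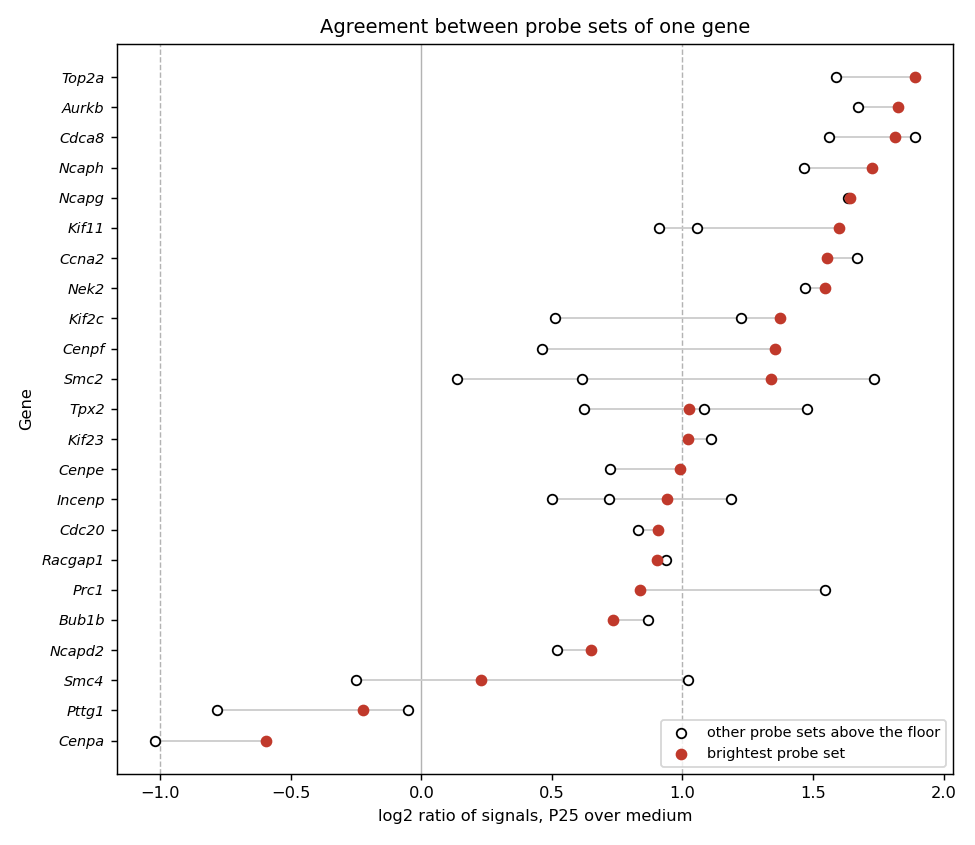
Log2 ratios of P25 over medium for the 23 mitotic genes with more than 1 probe set that exceeded the floor on each array, with red points for the brightest probe set, open points for the others and dashed lines at 2-fold. Cenpa and Pttg1 lie left of 0 on all their points, and Smc4 spans it.

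Other genes, most of them of mitosis, were given by 10 further lists. The lists also hold Kif3a, Kif1b and Kif13b, kinesins better known for carrying cargo. Of 134 measured genes in the lists, 42 (31.3%) were at least 2-fold higher and 1 lower, against 9.43% and 7.22% of all measured genes. The median log2 ratio of the 134 genes was 0.48. In the list of other spindle proteins 11 of 19 were at least 2-fold higher. The highest were Melk, a kinase gene (7.20-fold), Kif22, a chromosome-arm kinesin (4.59-fold), and Spag5, the astrin gene (4.47-fold), and at the low end lay the log2 ratios of Numa1 (-0.46), Kif3a (-0.38) and Kif1b (-0.33). Among other checkpoint and outer kinetochore genes 9 of 19 were at least 2-fold higher. Ska3 (5.92-fold) and Ska1 (5.76-fold), subunits of the SKA complex, and Spdl1, which brings dynein to kinetochores (5.48-fold), led the list, and Mad2l1bp (0.04), Pmf1 (0.21) and Mis12 (0.36) had its lowest log2 ratios. The 3 Ska1 probe sets ran from 0.20 to 2.53, and the 3 of Spag5 from 0.58 to 2.16. Of 18 inner centromere proteins 8 were at least 2-fold higher, led by Cenph (4.25-fold), Cenpw (3.57-fold) and Oip5 (3.29-fold). Their lowest log2 ratios were those of Cenpb (-0.02), Cenpq (0.02) and Cenpo (0.05).

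In the lists of the APC/C, cohesin, condensin II, centrosomes and cytokinesis, most genes were within 2-fold, as were 10750 of all 12897 measured genes. On the brightest probe set, none of 15 APC/C subunits and regulators was at least 2-fold higher or lower. Their log2 ratios ran from -0.21 (Anapc2) to 0.98 (Cdc23), with a median of 0.45. Between these lay Cdc26 (0.09), Anapc13 (0.13), Anapc5 (0.71) and Ube2s (0.61). Other probe sets passed 2-fold in Anapc11 (1.08), Cdc26 (-1.18) and Anapc1 (-1.03), and the lowest of Cdc23 gave -0.11. Of 15 cohesin genes 4 were at least 2-fold higher. They were Esco2, a cohesin acetyltransferase (4.60-fold, with a log2 ratio of 0.46 on another probe set), and Cdca5, the sororin gene (3.60-fold). The shugoshins Sgo1 (2.81-fold) and Sgo2a (2.47-fold) were the others. The lowest log2 ratios of the 15 were those of Mau2 (-0.65), Pds5a (-0.47) and Nipbl (-0.39). The ring subunits Smc3 (-0.04), Rad21 (0.17) and Smc1a (0.86), named after their values were seen, were within 2-fold. Of the condensin II genes Ncapg2 was 3.64-fold higher, while Ncapd3 and Ncaph2 had log2 ratios of 0.12 and 0.04. Among 14 centriole and centrosome genes 2 were at least 2-fold higher, Stil (3.30-fold) and Plk4 (2.84-fold), both needed to build new centrioles. The next log2 ratio was that of Haus1 (0.90), and those of Cep152 (-0.30), Pcnt (-0.22) and Sass6 (-0.16) were lowest. Of 10 other cytokinesis genes 2 were, Cep55, which recruits the abscission machinery (3.88-fold), and the citron kinase gene Cit (2.54-fold, with -0.29 on another probe set). The next log2 ratio was that of Septin2 (0.30), and those of Arhgef2 (-0.61), Septin7 (-0.12) and Kif13b (-0.07) were lowest.

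Of 14 regulators of mitotic entry and exit 4 were at least 2-fold higher, against 9.43% of all measured genes. Those were Cks1b (4.29-fold) and Cks2 (2.42-fold), small CDK-binding proteins, Wee1, which inhibits CDK1 (3.83-fold), and Cdc25a. Cdc25a, a phosphatase that activates CDKs, was 2.93-fold higher, with a log2 ratio of -0.37 on 1 of 3 probe sets. Cdc25b, another phosphatase of that family, had 126.0 against 474 and was 3.76-fold lower. It was the 1 gene of the list at least 2-fold lower (against 7.22% of all measured genes). The next lowest log2 ratios were those of Cdc14b (-0.65) and Ensa (0.01). Of 7 genes of the MMB complex and FOXM1, which activate mitotic promoters, 1 was at least 2-fold higher. Mybl2, the gene of B-MYB, had 312 against 30.3 (10.3-fold), and its other probe set gave a log2 ratio of 2.46. Foxm1 had 49.8 against 45.4, a log2 ratio of 0.14, while its other probe sets reached 0.93. The log2 ratios of Lin9 (0.36), Rbbp4 (0.29), Lin52 (-0.17), Lin54 (-0.18) and Lin37 (-0.34) were within 2-fold.

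DNA replication genes, which act in the preceding S phase, were set beside the mitotic genes. Of 29 measured 27 (93.1%) were at least 2-fold higher, against 9.43% of all measured genes. Their median log2 ratio was 1.61 beside 1.31 for the mitotic genes, a difference that could not be tested with 1 array per group. The list covers part of the replication machinery and was chosen with earlier results of these data known. Its share and its median depend on that choice. Cdc6, which loads the replicative helicase, was 10.1-fold higher, and Orc1 (4.89-fold) and Orc6 (4.47-fold), subunits of the origin recognition complex, followed. The lowest log2 ratios were those of Cdt1 (-0.11), Pcna (0.92) and Rpa2 (1.02).

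**Figure D4:**
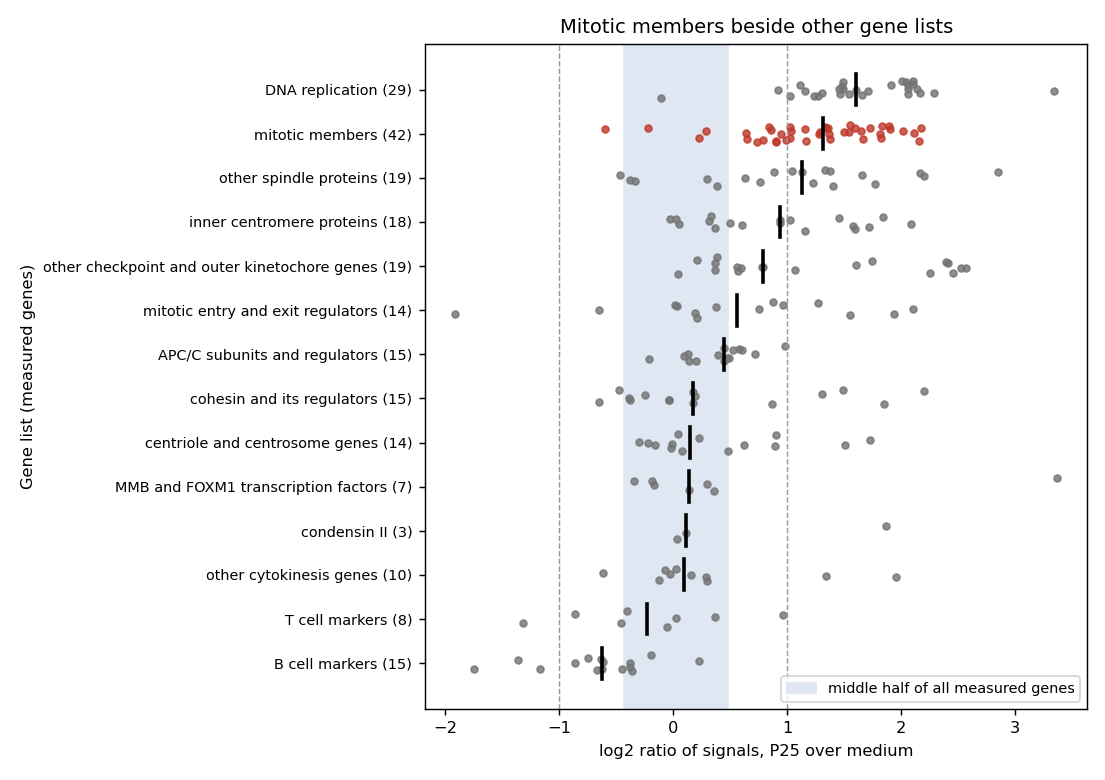
Log2 ratios of P25 over medium for the 42 mitotic genes (red) and the measured genes of 13 other lists (grey), with a black bar at each median, dashed lines at 2-fold and a band over the middle 50% of all measured genes. The median of the mitotic genes, 1.31, lies between those of DNA replication (1.61) and of the other spindle proteins (1.13).

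Markers of the cell types that the cultures could hold moved on the same arrays, and their part in the mitotic ratios was not tested. For the counts below, 9.43% of all measured genes were at least 2-fold higher and 7.22% at least 2-fold lower. The T cell genes Cd3e, Cd3d and Cd4 were below the floor on both arrays in all their probe sets, and Cd247 in its brightest, with another above the floor with P25 alone (log2 ratio of at least 0.26). The 12 T cell markers named on the arrays summed to a signal of 173 with P25 and 214 with medium, and of the 8 measured 1, Cd28, was at least 2-fold lower and none higher. Cd28 (22.5 against 56.0) and Zap70 (35.1 against 36.4) had the highest mean log2 signals of these, and Cd3g, of the CD3 complex, the highest ratio (21.6 against 11.1, 1.95-fold higher). Of 10 genes of activated T helper cells Ifng, Il2, Il21 and Cd40lg were below the floor on both arrays, and 2 of the 6 measured were at least 2-fold higher, Tbx21 (687 against 41.3) and Il2ra (122 against 25.6), which activated APCs can also express. The list summed to 979 with P25 and 265 with medium. The 15 B cell markers summed to 32160 and 45403, with Vpreb3, Blk and Ebf1 at least 2-fold lower and none higher. As a check of the labelled source, splenic APCs, B cell genes had high signals on both arrays, as in Cd79b (3903 against 7088) and Ms4a1 (5911 against 5041). Germinal centre B cell genes had 1 of 6 higher (Fas) and 3 lower (Rgs13, S1pr2 and Neil1). Rgs13 was under the floor with P25, so its ratio is a bound. Macrophage and monocyte markers had 7 of 10 at least 2-fold lower, Csf1r (173 against 514) and Adgre1 (153 against 329) being the brightest. Of those 7, C1qb, Mertk, Ccr2 and Mrc1 were under the floor with P25, so their ratios are bounds. Neutrophil markers had 7 of 9 at least 2-fold lower. The brightest of the 9 were S100a8 (3510 against 5331, 1.52-fold lower) and S100a9 (2001 against 4043, 2.02-fold lower), with high signals on both arrays. Of 10 conventional dendritic cell markers Zbtb46 and Ly75 were at least 2-fold higher and Cadm1 and Sirpa lower, the ratio of Cadm1 being a bound. Of 10 erythroid precursor markers on the arrays 6 were below the floor on both, among them Alas2, Klf1 and Hba-a1. Hemgn, under the floor with medium and so a bound, was the 1 at least 2-fold higher of the 4 measured.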

How the data were processed

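The deposited values are MAS5 signal intensities on a linear scale, made by the authors with GCOS, per the submitters' processing notes. Versions, scaling target and detection calls were not stated in what was used here. Biotin-labelled cRNA came from 1 µg of total RNA, per the labels' protocols. The 45101 probe sets include 64 controls, and the medians of the others were 18.0 (P25) and 18.4 (medium). The number of arrays, 1 per group, limits the precision, and a batch difference could not be separated from treatment.

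The treatment labels gave the groups. Probe sets with 1 platform symbol (34945, against 932 with several and 9160 with none) were used, with symbols updated through Entrez numbers to a RefSeq table of GRCm38.p6 (204 had no match there). Signals under the 40th percentile (10.3) were set to it, and a gene was measured when 1 array exceeded it. Ratios were computed with numpy 2.4.6 and pandas 2.3.3, loess with statsmodels 0.14.6, and the method was tested on simulated arrays. A gene counted as higher or lower at 2-fold, and no p-value was computed. All 42 measured genes of the 43 are described. Of each further list all measured genes are named where 8 or fewer were measured, and otherwise at least the 3 highest and 3 lowest, and marker lists are named in part. The genes and lists were chosen with earlier results of these data known. Alternatives were the floor, the scaling, the probe set rule and the threshold.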

Additional observations from a re-analysis of the deposited data

How the results depend on the processing

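Across the 10 alternative floors, scalings and probe set rules, the median log2 ratio of the mitotic genes stayed above 0, from 0.67 (75th percentile floor) to 1.46 (spike-in scaling). The number at least 2-fold higher was 28 of 42 (66.7%). It moved by over 1.5 times to 12 of 36 (33.3%, against 9.45% of all measured genes) with the 75th percentile floor, where signals below 122 are set to 122. With a 3-fold threshold it moved to 13 (31.0%, against 3.09%). The count also moved to 16 with the second brightest measured probe set, but only 26 genes have one. Their share was 61.5%, against 9.39% of all genes that have one. The number lower went from 0 to 1 with the second brightest probe set and with a 1.5-fold threshold, Cenpa in both. Of 398 values of single genes under an alternative 377 moved by less than 0.58, the SD between probe sets, 21 moved by more, and none of a gene past 2-fold changed sign. Cenpa and Pttg1 were below 0 in all 10. Of the 28 higher genes 13 were past 2-fold in each of the alternatives that could be run for them. Kif4 and Kif20a are among the 13, but both signals of each lie under 122, so the 75th percentile floor gave no value for them. Genes with 1 measured probe set have no value for the second brightest.

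Over all genes, 1216 higher and 931 lower became 2438 and 1933 with the 20th percentile floor, 3244 and 2593 with no floor, 657 and 357 with the 75th percentile floor, 576 and 466 with the second brightest probe set, 2701 and 2354 at 1.5-fold, and 398 and 212 at 3-fold. With the 60th percentile floor 591 were lower. The floor and the probe set rule also changed the number of measured genes, from 12897 to 6132 with the second brightest probe set. No paired analysis was possible because each group has 1 array. Dim signals limit the low end, since MAS5 subtracts mismatch signal.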
